A study of Mus musculus with 6 samples.

Results

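The Ly49 receptors are C-type lectin-like proteins encoded by the Klra genes of the natural killer (NK) gene complex, and 6 of them were followed here through every library of a single-cell RNA sequencing series of mouse kidney T cells. The members were Klra1 (Ly49A), Klra4 (Ly49D), Klra5 (Ly49E), Klra7 (Ly49G), Klra8 (Ly49H) and Klra9 (Ly49I), found by their symbols among the 32285 features of the count matrices, which hold 11 Klra features in all. Live CD45+ TCRαβ+ cells were sorted from kidneys of male wild-type mice (C57BL/6J, 7 to 8 weeks old). The control group was normal kidney and the IR group was kidney after ischemia-reperfusion, with both pedicles clamped for 30 min, and the cells were divided into CD4+, CD8+ and CD4-CD8- (DN) T cells. Each of the 6 groups was 1 library, so no difference given here has a replicate check, no test was run, and the intervals in parentheses (95%) cover counting error only. How many mice stood behind a library is not given in the sources used here.

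Ly49 receptors are type II membrane proteins that form disulfide-linked dimers, and most of them recognise MHC class I molecules on other cells. Inhibitory members, which include Ly49A, Ly49E, Ly49G and Ly49I, carry a tyrosine-based inhibitory motif in the cytoplasm and recruit the phosphatase SHP-1 (encoded by Ptpn6), which dampens the response of the cell to targets with normal MHC class I. Activating members, here Ly49D and Ly49H, lack that motif and signal through the adaptor DAP12 (encoded by Tyrobp). They are best known from NK cells, in which each cell expresses its own combination of a few members, and they are also found on NKT cells and on some innate-like or memory T cells.

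Depth differed between the conditions, and this touches every comparison of IR with control. After filters 47939 of 54039 barcodes were analysed, between 4042 and 10108 per library, with a median of 6626 to 8364.5 unique molecular identifiers (UMIs, 1 for each captured RNA molecule) per cell in the 3 control libraries and 1450.5 to 2355.5 in the 3 IR libraries. The control matrices were written by another version of Cell Ranger than the IR matrices, so condition and software version cannot be told apart. The sort was visible in the transcripts: Cd4 was at 210 and 146 CPM (UMIs scaled to the same total in every library) in the CD4 libraries and below 1 CPM in the others, the summed Cd8a and Cd8b1 level was 1495 CPM or more in the CD8 libraries and at most 6.27 CPM elsewhere, and the 6 T cell markers (Cd3d, Cd3e, Cd3g, Trac, Trbc1 and Trbc2) summed to between 6323 and 8584 CPM in all 6. Any pair of libraries shared between 6 and 30 barcode sequences, at most 0.396% of the smaller library.

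The 6 genes lie on the minus strand of mouse chromosome 6 (GRCm38, GENCODE M21), within 487879 bases that hold 20 annotated genes, and no other gene overlaps a member. In genomic order, Klra5 was at 129898996 to 129917650, Klra4 at 130043731 to 130067271, Klra8 at 130115226 to 130129898, Klra9 at 130178675 to 130193112, Klra7 at 130218605 to 130233322 and Klra1 at 130363917 to 130386874. The genes are close copies of each other, which limits how well reads can be assigned. Of the 50-base words in the annotated transcripts, 29.8% of those of Klra9 and 13.0% of those of Klra8 also occur in another Klra gene, against 4.26% for Klra4, 2.98% for Klra1, 0.655% for Klra5 and 0 for Klra7. In the last 500 bases, where 3' libraries are read, 46.0% of the words of Klra9 were shared, with Klra3 (23.4%), Klra8 (17.1%) and Klra10 (15.7%). Values of Klra9 and Klra8 are therefore the most exposed to misassigned UMIs, and those of Klra7 and Klra5 the least.

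The likeness of the members also showed at their start sites, and their sequences are given because 5 of the 6 members share a run of letters there. In the RefSeq promoter windows (GRCm38.p6, 250 bases before to 50 after the start), in which 11 of 11 Klra genes were found, the longest run held by at least 5 members was GGAAATTTAG, present in Klra4, Klra5, Klra7, Klra8 and Klra9 and also in Klra6. Searched on both strands, these letters were found in 28 of 32851 windows of all genes (0.0852%). A longer run, GAGGTTGAGTATCACT, was held by Klra5, Klra7, Klra8 and Klra9 and also by Klra6, with 7 of all windows (0.0213%). Shared letters are a description of these windows and say nothing of what binds there. In the stretches of 120 bases below, written 5′ to 3′ along the minus strand, the shared 10-base run is in capitals and everything else is in lower case. That of Klra1 is at chr6:130386845-130386964, Klra4 at chr6:130067242-130067361, Klra5 at chr6:129913202-129913321, Klra7 at chr6:130233299-130233418 and Klra8 at chr6:130129869-130129988.
Klra4: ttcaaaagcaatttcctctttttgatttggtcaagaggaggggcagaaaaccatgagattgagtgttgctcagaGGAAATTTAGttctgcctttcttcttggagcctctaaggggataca
Klra5: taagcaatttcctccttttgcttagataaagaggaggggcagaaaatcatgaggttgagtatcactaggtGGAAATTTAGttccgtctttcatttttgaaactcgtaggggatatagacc
Klra7: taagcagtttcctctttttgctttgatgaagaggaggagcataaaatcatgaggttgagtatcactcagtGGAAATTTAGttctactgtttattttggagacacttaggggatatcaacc
Klra8: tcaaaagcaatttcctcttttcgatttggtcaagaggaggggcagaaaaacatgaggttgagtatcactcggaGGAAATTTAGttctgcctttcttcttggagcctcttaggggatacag
Klra1: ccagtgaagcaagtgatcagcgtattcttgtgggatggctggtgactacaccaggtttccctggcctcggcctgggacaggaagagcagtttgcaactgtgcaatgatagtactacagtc
Counted to the RefSeq start site, which for Klra5 lies inside the GENCODE gene given above, the run began 27 bases before the start in Klra5, 26 in Klra7, 17 in Klra8 and 16 in Klra4, and in Klra9 it lay after the start. The window of Klra1, the most abundant member in DN cells, did not hold the run.

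The first comparison asked how the family differs between DN T cells and the other T cells of the same kidney. All 4 inhibitory members were far higher in DN T cells, and they carried nearly all of the family's RNA. Klra1 was at 11.3 CPM (569 UMIs) in control CD4, 3.89 (177 UMIs) in control CD8 and 138 (8374 UMIs, 135 to 141 CPM) in control DN, and at 5.75, 3.41 and 88.2 CPM (89, 22 and 387 UMIs) in the same order in IR. Klra7 was at 3.03, 17.2 and 106 CPM (153, 783 and 6432 UMIs) in the control libraries and at 2.07, 14.4 and 67.5 CPM (32, 93 and 296 UMIs) in IR. Both genes were thus highest in DN in either kidney, but they differed in which subset came next: CD4 for Klra1 and CD8 for Klra7, with intervals that did not overlap in either kidney except those of Klra1 in IR. Klra9 was at 7.08, 6.83 and 87.8 CPM (358, 311 and 5335 UMIs) in control and at 3.88, 4.97 and 36.5 CPM (60, 32 and 160 UMIs) in IR. Klra5 was at 3.17, 2.85 and 62.9 CPM (160, 130 and 3824 UMIs) in control and at 2.91, 2.17 and 39.9 CPM (45, 14 and 175 UMIs) in IR. For these 2 genes the CD4 and CD8 intervals overlapped in both kidneys, so the order of CD4 and CD8 was not resolved at this depth. Counts of 3' tags were not divided by gene length, because a molecule gives 1 tag whatever its length, and levels are best compared for 1 gene across libraries.

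**Figure D1:**
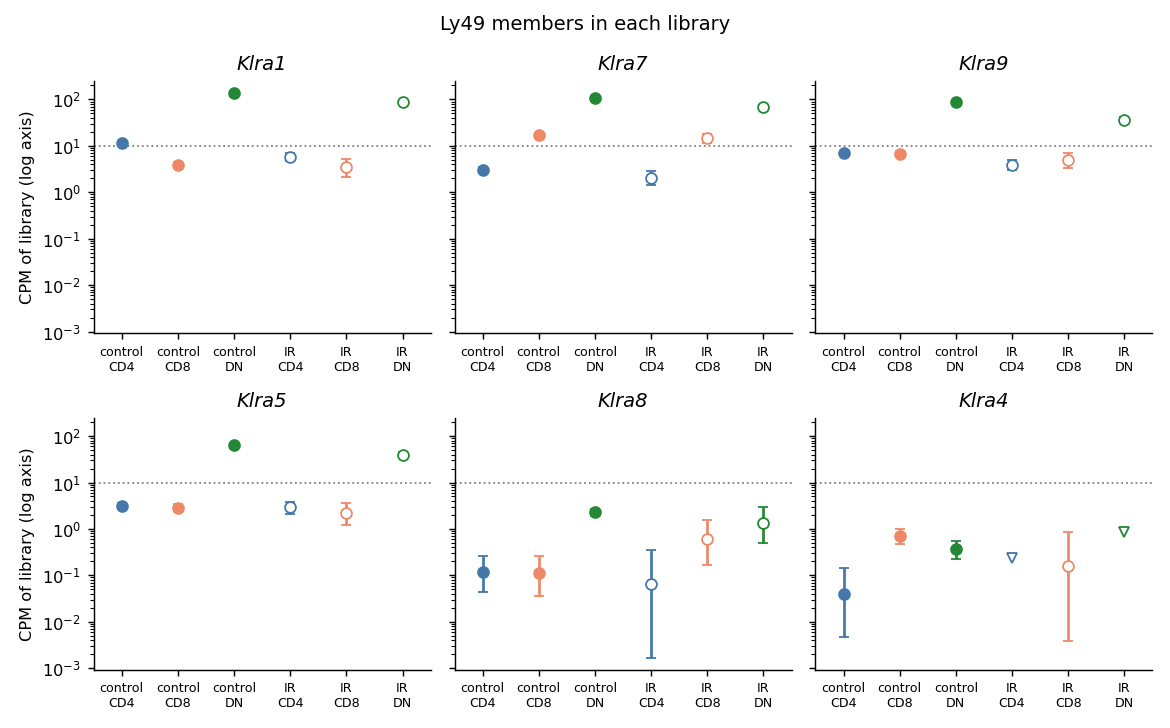
CPM of each Ly49 member in the 6 libraries on a log axis, with exact 95% Poisson intervals (bars smaller than the symbol are hidden), filled for control and open for IR, with CD4 in blue, CD8 in orange and DN in green; triangles give the exact Poisson upper limit at a count of 0 and the dotted line is 10 CPM. Klra1, Klra7, Klra9 and Klra5 are highest in DN in both kidneys, whereas Klra8 and Klra4 stay below 10 CPM in all 6 libraries.

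The activating members were scarce. Klra8, whose product is known as the receptor that recognises cells infected with mouse cytomegalovirus, was at 0.119, 0.110 and 2.27 CPM (6, 5 and 138 UMIs) across the CD4, CD8 and DN libraries of control and at 0.0646, 0.621 and 1.37 CPM (1, 4 and 6 UMIs) across those of IR. Its 138 UMIs in control DN came from only 32 cells, at 4.31 UMIs per positive cell. Klra4 was the 1 member that was not highest in DN: it was at 0.0396 (2 UMIs), 0.702 (32 UMIs, 0.480 to 0.992) and 0.362 CPM (22 UMIs, 0.227 to 0.548) across the control libraries, and IR held a single UMI, in CD8. The 22 UMIs of Klra4 in control DN came from 5 cells. With so few cells neither gene reached 10 CPM anywhere, so neither could pass the rule below.

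By the rule used throughout (at least 10 CPM in the higher library and at least 2-fold, for DN against both CD4 and CD8), 4 of the 6 members were higher in control DN and 0 lower, where 0.817% of the 9053 features tested were higher and 0.917% lower. In IR DN the same 4 genes were higher, with 1.52% of 9088 features higher and 1.65% lower. In control, Klra1 was 12.2-fold (11.2 to 13.4) higher than in CD4 and 35.5-fold (30.6 to 41.4) higher than in CD8. Klra7 showed the reverse order, at 35.0-fold (29.8 to 41.3) over CD4 and 6.16-fold (5.72 to 6.64) over CD8. Klra9 was 12.4- and 12.9-fold and Klra5 19.9- and 22.1-fold higher than in CD4 and CD8. In IR the ratios over CD4 and CD8 were 15.3 and 25.8 for Klra1, 32.6 and 4.68 for Klra7, 9.41 and 7.35 for Klra9, and 13.7 and 18.4 for Klra5. Below the 10 CPM limit, Klra8 was 19.1-fold (8.57 to 53.0) and 20.7-fold (8.65 to 64.7) above CD4 and CD8 in control DN, and the ratio of Klra4 in control DN to CD8 was 0.515 (0.285 to 0.915). After thinning of each cell to 700 UMIs, these ratios were 4.15 and 3.96 for Klra8 and 0.165 for Klra4, all outside those intervals. Klra5 in control DN was then 16.5-fold above CD4 and 39.5-fold above CD8. Summed, the members reached 24.7, 31.6 and 397 CPM across the CD4, CD8 and DN libraries of control and 14.7, 25.8 and 233 CPM across those of IR, which made DN 16.1- and 12.6-fold higher in control and 15.9- and 9.06-fold higher in IR. In libraries of sorted cells a higher summed level can come from more positive cells or from more RNA in each, and both are described below. Markers of other lymphocytes also differed between the libraries. The NK marker list (Ncr1, Eomes, Gzma, Prf1 and Klrk1) summed to 159, 603 and 772 CPM across control CD4, CD8 and DN and to 201, 733 and 635 CPM across IR. The gamma delta T cell list (4 genes, 2 of them at 10 CPM or more in DN) summed to 57.9, 22.3 and 260 CPM and to 49.9, 15.4 and 164 CPM. The invariant NKT list (Zbtb16 and Trav11) summed to 206, 2.09 and 262 CPM and to 79.5, 0.310 and 132 CPM, so CD4 came next to DN there. Genes of naive T cells moved the other way: Ccr7 was at 32.9, 85.5 and 0.938 CPM and Igfbp4 at 35.6, 36.8 and 0.132 CPM across control, and Ccr7 was at 247, 706 and 8.89 CPM and Igfbp4 at 224, 160 and 0.684 CPM across IR. Both were lower in DN by the rule in each kidney, and Lef1 was at 464, 563 and 356 CPM in control and 444, 673 and 259 CPM in IR. The part of these cell types in the DN over CD4 and CD8 ratios was not tested.

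**Figure D2:**
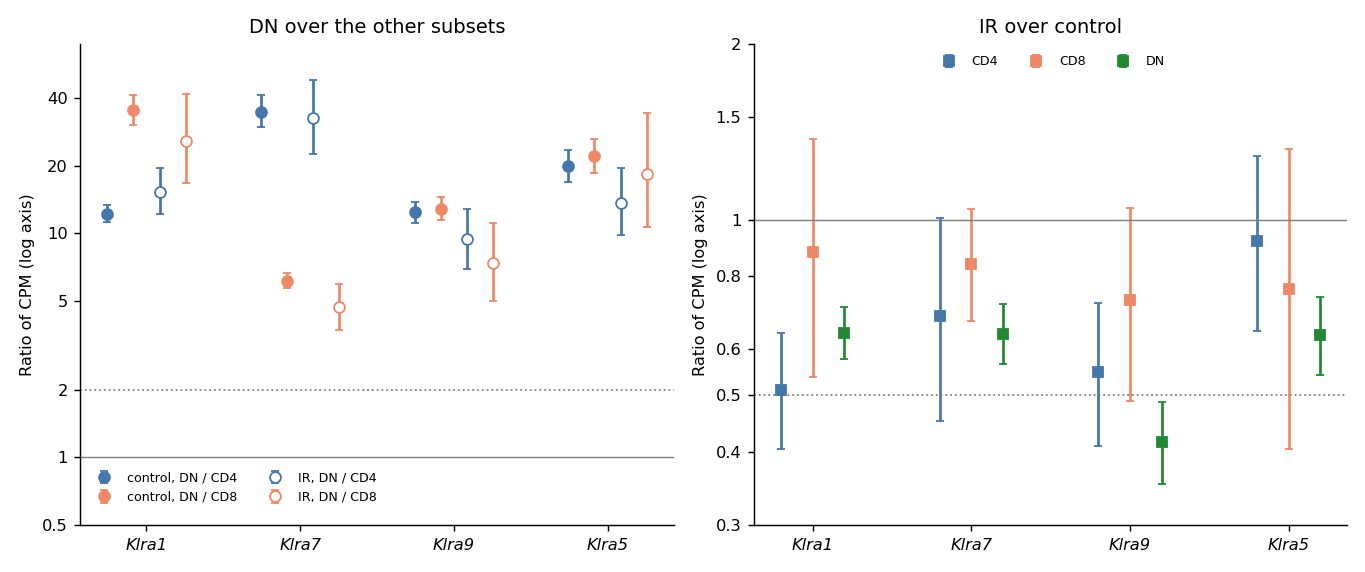
Ratios of CPM with exact 95% intervals on log axes for the 4 members above 10 CPM. On the left, DN over CD4 (blue) and DN over CD8 (orange) in control (filled) and IR (open) all lie above the dotted 2-fold line. On the right, IR over control in CD4 (blue), CD8 (orange) and DN (green) lies below 1 for all 12 points, and only Klra9 in DN lies below the dotted line at 0.5.

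The 3 subsets also differed in which members made up the family's RNA. In control DN, Klra1 gave 34.7% of the 24125 member UMIs, Klra7 26.7%, Klra9 22.1% and Klra5 15.9%. Control CD4 cells leaned to Klra1 (45.6% of 1248 UMIs) and Klra9 (28.7%), whereas in control CD8 cells Klra7 alone gave 54.5% of 1438 UMIs and Klra1 12.3%. The IR libraries kept each subset's leading member: Klra1 at 39.2% of 227 UMIs in CD4 and 37.8% of 1024 UMIs in DN, and Klra7 at 56.0% of 166 UMIs in CD8. In IR CD8, however, cells with a member UMI held a Cd8a or Cd8b1 UMI less often than the other cells, as given below. How far the member values of that library are those of CD8 T cells was not tested. The activating pair Klra4 and Klra8 gave 0.641%, 2.57% and 0.663% of member UMIs across the same control libraries and 0.441%, 3.01% and 0.586% across those of IR. Among the other Klra features, Klra3 and Klra6 were above the activating members and below the 4 inhibitory ones in DN: in control and IR DN, Klra3 (Ly49C) had 22.8 and 18.0 CPM and Klra6 had 16.6 and 10.9 CPM. The 6 members held 90.6% and 88.7% of the UMIs of all Klra features in control and IR DN, and between 71.4% and 76.4% in the other libraries. Of the 11 Klra features, 6 reached 10 CPM in each kidney and were tested. Klra3, Klra5, Klra6 and Klra9 reached it only in DN, so a count of tested features higher in DN is largely set by that limit. By the rule, all 6 were higher in control DN and 5 in IR DN, where Klra6 was 1.96-fold above CD8. Over all features tested, 0.817% and 1.52% were higher.

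**Figure D3:**
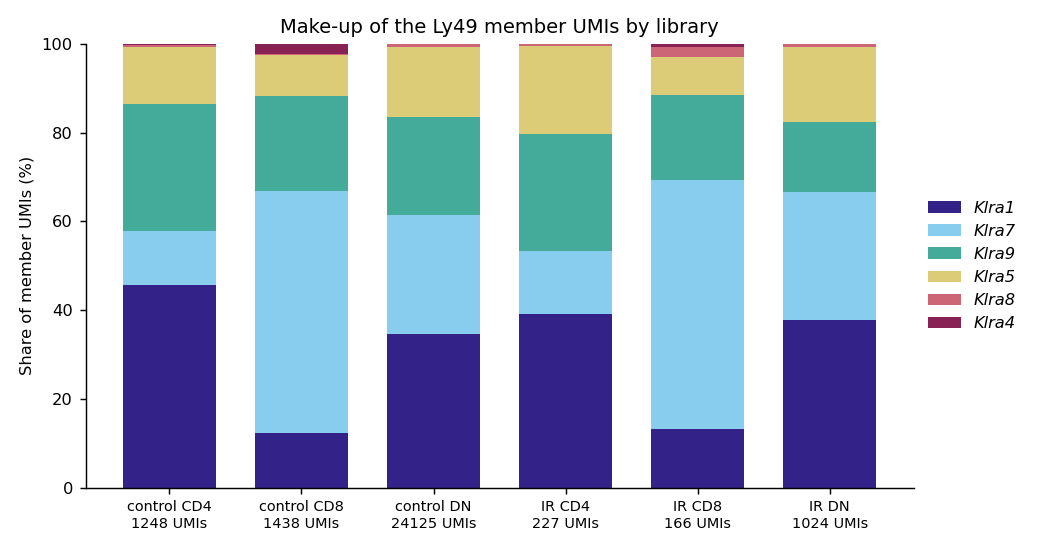
Share of the Ly49 member UMIs given by each member in each library (stacked bars that sum to 100%), with the number of member UMIs under each bar. Klra7 makes up 54.5% and 56.0% of the CD8 bars, and Klra1 between 34.7% and 45.6% of the CD4 and DN bars.

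The next comparison asked what differed after ischemia-reperfusion. In DN, 1 of the 6 members passed the rule: Klra9 was at 0.415 times its control level (0.353 to 0.486), or 2.41-fold lower, where 11.3% of the 9204 features tested were lower and 8.31% higher. Klra1, Klra7 and Klra5 were at 0.640 (0.577 to 0.709), 0.638 (0.566 to 0.717) and 0.634 (0.542 to 0.738) times their control level in DN, so they fell short of 2-fold, with intervals that lie above that of Klra9. When all libraries were clustered together, DN cells mostly separated by condition, those with Ly49 RNA among them. Of control DN member UMIs, 72.9% were in a cluster with 1281 control DN cells (14.4%) that held 1 IR DN cell. Of IR DN member UMIs, 74.6% were in a cluster with 441 IR DN cells (10.9%) that held 4 control DN cells. Other DN cells separated alike: another cluster held 5309 control and 2 IR DN cells, and a further one 4 control and 3250 IR DN cells. No correction between libraries was applied, and Klra features were not left out of the clustering. The median log2 ratio of all features tested was -0.26 in DN, and those of Klra1, Klra7 and Klra5 were -0.64, -0.65 and -0.66, against -1.27 for Klra9. With TMM scaling, which moved all DN ratios slightly further down, Klra9 was at -1.31 and the other 3 between -0.69 and -0.70. Because 46.0% of the 3' words of Klra9 occur in other Klra genes and the 2 conditions differ in Cell Ranger version, the part of read assignment in this value was not tested.

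In CD4 and CD8 no member passed the rule, where 15.1% and 17.7% of features were lower and 7.72% and 7.92% higher in IR. In CD4, Klra1 was at 0.511 (0.404 to 0.640) and Klra9 at 0.547 (0.409 to 0.721) times control, the former just short of 2-fold. Keeping the top 5% of barcodes by UMI, or every deposited barcode, moved Klra1 past that limit (1 member lower). Klra7 and Klra5 were at 0.683 and 0.919 in CD4, and in CD8 the 4 inhibitory members were between 0.727 (Klra9) and 0.879 (Klra1), each with an interval that includes 1. The same alternatives put Klra1 in CD8 at 0.544 and 0.494 times control, below 10 CPM. The summed members were at 0.594 (0.514 to 0.685), 0.816 (0.691 to 0.959) and 0.588 (0.552 to 0.626) times control in CD4, CD8 and DN, while the median log2 ratios of all features were -0.26, -0.38 and -0.26.

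Members were carried by a minority of cells in every library. To compare cells of different depth, each cell was thinned at random to 700 UMIs, and shallower cells (19 to 925 per library) were left out. A UMI of any member was then found in 1.16% of control CD4 cells (107 of 9202), 1.27% of control CD8 cells (112 of 8791) and 14.7% of control DN cells (1301 of 8879; 13.9 to 15.4%), and in 0.711% (71 of 9984), 0.999% (54 of 5407) and 9.27% (334 of 3603; 8.34 to 10.3%) of IR cells. Without thinning the shares were 2.96%, 2.89% and 27.9% in control and 1.01%, 1.31% and 11.8% in IR. The DN share was thus the highest in either kidney at any of these depths. For free RNA, cells that should lack the family give the comparison: Ccr7-positive, naive-type T cells held a member UMI in 0.149% (2 of 1344) of IR CD4 and 0.185% (3 of 1620) of IR CD8 cells, with median depths of 2586 and 1914 UMIs, and in 0 of 188 of control CD4 cells, which allows up to 1.60% (3 counts of the total, as for every share of 0). In control CD8, however, Ccr7-positive cells reached 1.35% (6 of 446; 0.495 to 2.91%; median depth 8357 UMIs), no lower than the 1.27% of all cells of that library (6867 UMIs), and in control CD4 the share of 1.16% lies under what 0 of 188 allows. The shares of IR CD4 and CD8 thus stood above those of their Ccr7-positive cells, and those of control CD4 and CD8 were not resolved from them. These cells give no bound for free RNA in the DN libraries, where Ccr7-positive cells were 3 in control and 15 in IR and the family's RNA was far more abundant. In Foxp3-positive, regulatory-type cells of control CD4 it was 0 of 97, which allows up to 3.09%. Of the barcodes removed as non-T, 0 of 81 in IR DN held one, and 3 of 15 in control DN (20%; 4.33 to 48.1%) did, a share not below the 14.7% of its T cells, so for control DN no background level was resolved.

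Member by member, the DN share with a UMI after thinning was 6.51% for Klra1, 4.80% for Klra7, 4.55% for Klra9, 2.77% for Klra5, 0.124% for Klra8 and 0.0113% for Klra4 in control. In IR DN the shares were 4.39% (3.74 to 5.11), 3.22%, 1.86% (1.44 to 2.36), 1.55% and 0.0555% in the same order, and Klra4 was found in 0 of 3603 cells, which allows up to 0.0833%. In these thinned shares the order of the members was the same in both conditions, with the largest step down for Klra9 among the 4 inhibitory genes. By CPM, Klra9 lay above Klra5 in control DN and its interval overlapped that of Klra5 in IR DN. Before thinning, positive control DN cells held 7.07 UMIs of Klra5, 6.86 of Klra7, 5.40 of Klra1 and 5.29 of Klra9 on average. Positive cells of control CD4 and CD8 held 4.85 and 6.19 of Klra5, 3.92 and 4.96 of Klra7, 3.18 and 4.12 of Klra1 and 4.26 and 3.49 of Klra9, so for each of these genes the DN average was the highest of the 3, at a median depth of positive cells of 8737 UMIs (7534 for CD4 and 8035 for CD8). In control DN, Klra5 therefore had the fewest positive cells of the 4 and the most UMIs in each. The positive cells were not only the deepest cells: from the shallowest to the deepest of 4 equal bins of cells the unthinned share was 24.3%, 26.4%, 26.6% and 34.2% in control DN and 6.53%, 11.2%, 11.8% and 17.5% in IR DN.

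Within DN T cells the family followed the adaptor gene Fcer1g. Fcer1g encodes the Fc receptor gamma chain, an adaptor of activating receptors, and after thinning a member UMI was found in 51.7% (432 of 836; 48.2 to 55.1%) of control DN cells with a Fcer1g UMI and in 10.8% (869 of 8043; 10.1 to 11.5%) of those without. In IR DN the shares were 41.3% (174 of 421) and 5.03% (160 of 3182). Klrb1c, which encodes NK1.1, divided the cells less: 28.3% with and 12.6% without in control, 15.5% and 8.32% in IR. Cells with both Fcer1g and Klrb1c reached 58.0% in control and 46.1% in IR, cells with Fcer1g alone 49.3% and 39.8%, and cells with Klrb1c alone 20.8% and 7.18%. Median depths of the compared cells were close (8526 and 8359 UMIs for control cells with and without Fcer1g). In control DN cells with a UMI of Pdcd1, the gene of the checkpoint receptor PD-1, the share was 14.2% (8.62 to 21.5) against 14.7% without. Cells with Trgv2, a T cell receptor gamma segment, held a member UMI in 13.9% (11.8 to 16.2) against 14.8%. In IR DN the shares were 5.88% (1.23 to 16.2) against 9.32% for Pdcd1 and 6.94% (3.94 to 11.2) against 9.42% for Trgv2, so no difference by either gene was resolved at this depth. Kcnq5, a potassium channel gene, went the other way, with 11.4% of Kcnq5-positive and 20.3% of Kcnq5-negative control cells and 6.02% and 11.1% in IR. The few Fcer1g-positive cells of the other subsets behaved alike: 42.4% (28 of 66) held a member UMI in control CD8 and 20.5% (15 of 73) in control CD4, against 0.963% and 1.01% of the Fcer1g-negative cells.

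NK cells express several Ly49 members per cell, so co-detection was counted in single DN cells without thinning. Of 2481 control DN cells with a member, 1268 held 1 member, 875 held 2, 296 held 3, 40 held 4 and 2 held 5. The most frequent sets were Klra1 alone (583 cells, 23.5%), Klra1 with Klra7 (344, 13.9%), Klra9 alone (306) and Klra1 with Klra9 (224). In IR DN, 366 of 475 positive cells held 1 member, 95 held 2, 13 held 3 and 1 held 4. An expected number was formed from the single shares within 10 bins of depth, as if members were found independently of each other. In control DN, 1213 cells held 2 or more members where 596 were expected, a ratio of 2.04 (1.92 to 2.15), and in IR DN 109 where 35.1 were expected, a ratio of 3.1 (2.55 to 3.74). In control CD4, 54 cells were found against 4.50 expected, and in control CD8 56 against 4.98, ratios that are not comparable with that of DN because far fewer cells were positive there. Members thus shared cells more often than their single shares give in these 4 libraries.

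Pairs differed in how often they shared a cell. In control DN, Klra1 and Klra7 were found together in 605 cells where 174 were expected (ratio 3.48; 3.21 to 3.77), the largest excess among pairs of the 4 inhibitory members, and these 2 genes share no 50-base word. Klra7 with Klra9 was at 3.04 (2.73 to 3.39), Klra5 with Klra9 at 2.97 (2.56 to 3.43) and Klra1 with Klra9 at 2.79 (2.55 to 3.05). Klra5 joined Klra7 (2.23; 1.86 to 2.65) and Klra1 (1.96; 1.69 to 2.26) less often, and the intervals of both lie below that of Klra1 with Klra7. In these 6 pairs the scarcer member had at least 2 UMIs in 68.1% to 80.9% of the cells. After thinning to 700 UMIs, Klra1 with Klra7 was at 4.78 (4.01 to 5.65) and Klra1 with Klra5 at 2.72 (1.97 to 3.66). Klra5 with Klra7 was then lower, at 1.65 (0.994 to 2.58), an interval that includes 1. Without thinning, Klra8 and Klra9 shared 26 cells against 3.78 expected (6.87; 4.49 to 10.1). Since 13.1% of the 3' words of Klra8 occur in Klra9, misassigned UMIs may have a part in that pair, which was not tested. In IR DN, Klra1 with Klra7 again led the inhibitory pairs (62 cells, ratio 5.14; 3.94 to 6.59), followed by Klra1 with Klra9 (27 cells, 3.99; 2.63 to 5.81), and Klra5 with Klra7 (7 cells, 1.54) had an interval that includes 1.

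**Figure D4:**
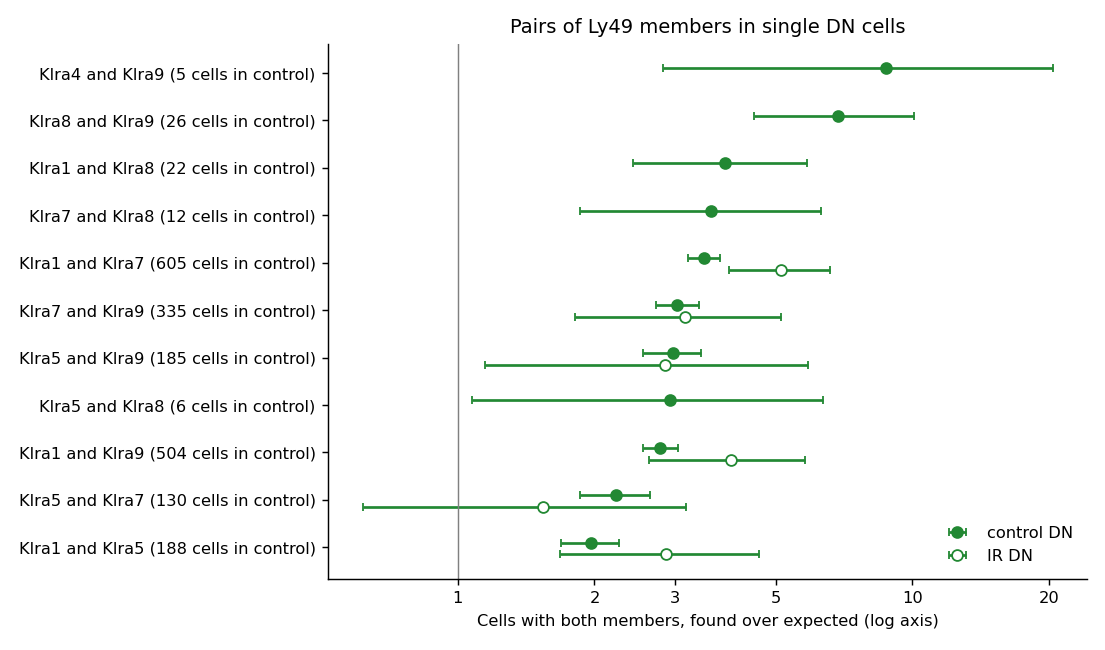
Number of DN cells with both members of a pair divided by the number expected from the single shares within bins of depth, on a log axis with exact 95% Poisson intervals, filled for control DN and open for IR DN. Cells were not thinned. Every control pair shown lies to the right of 1, with Klra1 and Klra7 at 3.48 in 605 cells and Klra1 and Klra5 lowest at 1.96.

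Co-detection was also counted apart in cells with and without Fcer1g. When the expectation was formed separately in control DN cells with and without a Fcer1g UMI, a split added after the values were seen, 947 of the 2190 Fcer1g-positive cells held 2 or more members where 856 were expected, a ratio of 1.11 (1.04 to 1.18). Within these cells, of which 71.4% held a member, the pairs lay on either side of 1: Klra1 with Klra7 was at 1.46 (1.33 to 1.59; 505 cells), Klra1 with Klra9 at 1.27 (1.15 to 1.40), and Klra1 with Klra5 at 0.772 (0.648 to 0.914; 136 cells where 176 were expected). Klra5 with Klra7 was at 0.893 (0.733 to 1.08) and Klra5 with Klra9 at 1.27 (1.07 to 1.5). The ratios of cells with and without Fcer1g are not on one footing, because they have different upper limits. At most the 1564 positive cells with Fcer1g could hold 2 or more members, where 856 were expected. Without Fcer1g the same numbers were 917 and 78.4. In the 6708 cells without a Fcer1g UMI, of which 13.7% held a member, the ratio was 3.39 (3.0 to 3.83), with Klra1 and Klra5 at 4.03 (3.01 to 5.29). In IR DN the ratio was 1.11 (0.871 to 1.39) among 585 cells with Fcer1g, where Klra1 with Klra7 was at 1.5 (1.10 to 1.99), and 4.72 (3.27 to 6.60) among the 3457 without.

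Cells with a member UMI were then compared with the other cells of the same library, after thinning and without Klra features in the named genes, to describe which other genes shared these cells. They carried more RNA of other NK-type receptors and of their adaptors. In control DN, 4469 features had at least 30 UMIs and 50 CPM in either set of cells. Of these, 52 (1.16%) were at least 2-fold higher in cells with a member UMI and 27 (0.604%) at least 2-fold lower. Both limits had to be met in the set where the feature was higher. The largest ratio belonged to Ncr1, which encodes the NK receptor NKp46, at 80.4 CPM in cells with and 4.15 CPM in cells without a member UMI (19.4-fold; 11.9 to 32.8). Next were Aoah, which encodes a lipase that inactivates endotoxin (7.51-fold), Tyrobp, the DAP12 adaptor of activating Ly49 receptors (7.51-fold; 5.99 to 9.44), Lrmda (7.37-fold), Fcer1g (6.67-fold; 5.94 to 7.50) and Cd7, which encodes an NK and T cell surface protein (6.62-fold). Cd244a (the SLAM family receptor 2B4), Atp1b1, Gm16341 and Klre1 completed the 10 named by this rule, at 4.75- to 5.11-fold. In IR DN, Fcer1g was 8.03-fold (6.92 to 9.30), Tyrobp 4.86-fold, Klre1 4.19-fold and Cd7 6.02-fold higher in cells with a member UMI. Among 3778 features in IR DN, 0.794% were at least 2-fold higher and 3.71% lower by this rule. These 2 shares are not on one footing, because cells with a member UMI were by far the smaller set in IR DN (334 against 3269 cells). Ncr1 was 6.54-fold higher there on 6 and 9 UMIs, with an interval of 1.92 to 20.6, and Gm16341, at 1 and 9 UMIs, was at 1.09 (0.0249 to 7.87).

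Gene lists describe these cells by function, counted at 10 CPM and 2-fold, where 2.26% of 8942 features were higher and 1.8% lower in control DN and the median ratio was 1.0. Of 13 NK gene complex lectins, 9 were higher and 0 lower in control DN cells with a member UMI (median ratio 2.32). They included Klre1 (4.75-fold), whose product pairs with other lectins to form receptors, Klrc2, an NKG2 gene (2.92-fold), Klrd1, which encodes CD94 (2.64-fold), and Klrk1, which encodes NKG2D (2.25-fold). All 5 NK markers were higher (Ncr1, Eomes, Gzma, Prf1 and Klrk1), while the 6 T cell markers did not differ by 2-fold (0 higher and 0 lower). The share of cells with a Cd3d, Cd3e or Cd3g UMI was 87.9% with and 87.3% without a member UMI after thinning, and 99.3% and 99.2% without thinning. Ncr1, the marker that best defines NK cells, was found in 4.77% of control DN cells with a member UMI and 0.198% of those without (thinned). Of the adaptors and kinases, 3 of 8 were higher (Tyrobp, Fcer1g and Plcg2), and of the 3 phosphatases of inhibitory receptors 0 were, with Ptpn6 (SHP-1) at 1.52-fold (1.15 to 2.00). Of the 6 MHC class I ligand and processing genes 0 differed, and H2-K1, which encodes a class I heavy chain, was at 0.933 (0.898 to 0.970).

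Effector and trafficking genes divided the cells as well. Of 11 innate-like and memory genes 4 were higher in control DN cells with a member UMI, namely the chemokine gene Ccl5 (2.59-fold; 2.48 to 2.70), the granzyme genes Gzma (3.04-fold) and Gzmb (3.45-fold), and perforin (Prf1, 2.49-fold). The tissue-residency receptor gene Cxcr6 was at 0.673 (0.624 to 0.726). S1pr1, which encodes a receptor for exit from tissue, was 2.03-fold (1.44 to 2.82) higher. Of the 10 transcription factors, Eomes (5.48-fold, on 15 and 16 UMIs) and Ikzf2, which encodes Helios (2.13-fold; 1.93 to 2.35), were higher, and Zbtb16, which encodes PLZF, the factor of NKT cells, was lower at 0.459 (0.374 to 0.558). Without thinning, a setting chosen after the data were seen, Zbtb16 was at 0.566 and no longer passed 2-fold, while Fcer1g was at 13.0-fold and Ncr1 at 30.5-fold. Among features with at least 30 UMIs and 50 CPM in control DN cells without a member UMI, the lowest ratios were those of Ly6c1 (0.110), Themis (0.287), Ly6a (0.308) and Il4 (0.320). Control DN cells with Ly49 RNA thus held less of Zbtb16 and Il4 and more of Ccl5, Gzma and Gzmb.

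In IR DN, where 6.19% of 9159 features were higher and 9.51% lower, 4 of 11 lectins, 2 of 7 adaptors or kinases and 4 of 12 innate-like and memory genes were higher, and 0 of 6 T cell markers. Of the NK markers, 2 of 4 were higher in IR DN (Ncr1 and Gzma). Gzma was 7.48-fold (5.98 to 9.33), Ccl5 3.36-fold (3.22 to 3.49) and S1pr1 2.65-fold (1.53 to 4.39) higher, and Zbtb16 was at 0.365 (0.180 to 0.662) on 11 and 296 UMIs. Cells with a Cd3 UMI made up 90.1% of those with and 87.2% of those without a member UMI after thinning. In control CD4 and CD8, without thinning, cells with a member UMI also held a Fcer1g UMI more often, at 27.0% against 2.23% and 27.9% against 1.10%. They differed in Zbtb16, which was found in 70.4% (64.7 to 75.8) of the control CD4 cells with a member UMI and 30.8% of those without, but in 43.2% of the control DN cells with and 63.8% of those without. Of the control CD8 cells with a member UMI, 93.3% held a Cd8a or Cd8b1 UMI, against 96.6% of the others, and in IR CD8 36.1% against 69.9%.

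**Figure D5:**
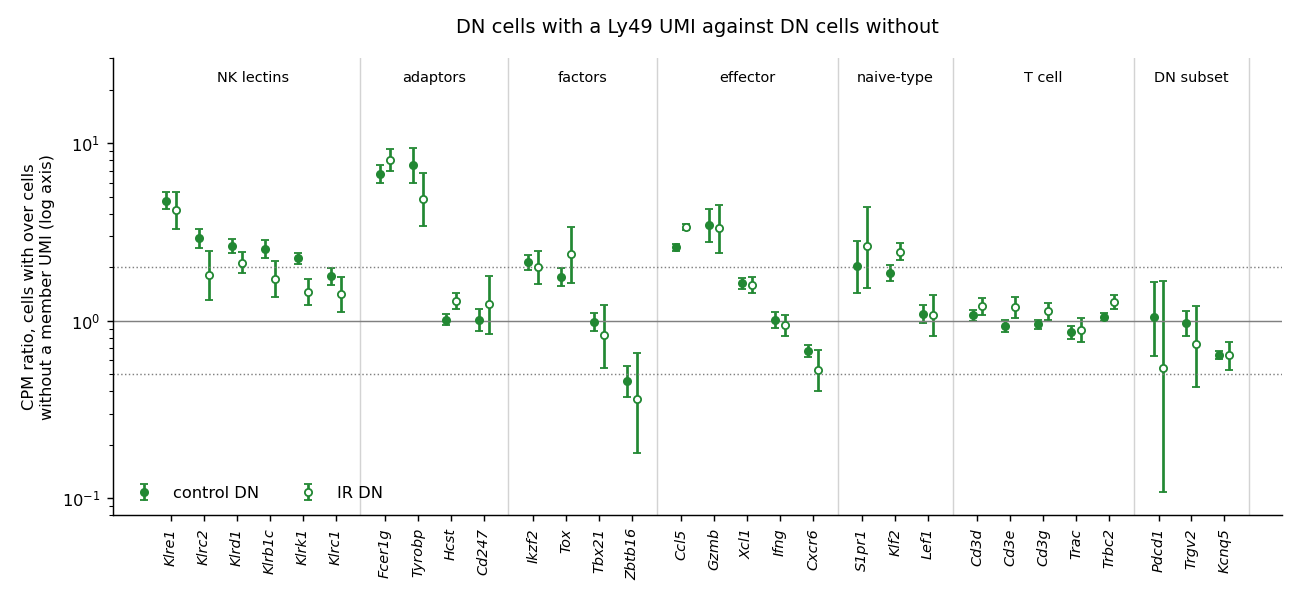
Ratio of CPM in DN cells with a Ly49 member UMI to DN cells without, after thinning to 700 UMIs, on a log axis with exact 95% intervals, filled for control DN and open for IR DN, with genes grouped by role and dotted lines at 2 and 0.5. Klre1, Fcer1g, Tyrobp, Ccl5, Gzmb and S1pr1 lie above 2 in both libraries, the Cd3 and T cell receptor genes lie near 1, and Zbtb16 lies below 0.5.

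Partners of the family were also compared between the sorted subsets. Of 11 NK gene complex lectins tested, 8 were higher and 0 lower in control DN against both other subsets, and in IR 9 were higher and 1 (Klrg1) lower, beside the 0.817% and 1.52% of all features. Klre1 was at 26.2, 32.9 and 223 CPM across the CD4, CD8 and DN libraries of control and at 21.2, 29.2 and 145 CPM across those of IR. Of 7 adaptors and kinases, Tyrobp and Fcer1g were higher in DN in both kidneys, Tyrobp at 6.67, 10.3 and 51.2 CPM and Fcer1g at 13.8, 13.6 and 193 CPM in control. None of the 3 phosphatases was (0 higher and 0 lower), and Ptpn6 was lowest in DN, at 64.7, 132 and 55.8 CPM in control and 59.4, 81.3 and 39.0 CPM in IR. The ligand genes were near level: none of the 6 class I genes differed (0 higher and 0 lower in both kidneys), and H2-K1 was at 3601, 3694 and 3486 CPM in control and 3856, 2789 and 3974 CPM in IR. Of the 10 transcription factors, 0 were higher in DN, 1 was lower in control (Tcf7, a factor of naive and memory T cells) and 2 in IR (Tcf7 and Tox), beside 0.917% and 1.65% of all features lower. Tcf7 was at 83.7 CPM in control DN against 210 and 302 CPM in CD4 and CD8. Between conditions in DN, 1 of 11 lectins (Klrg1) and 0 of 6 class I genes were lower in IR, beside 11.3% of all features, and Klre1 was at 0.652 times control, beside the 0.588 of the summed members.

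Finally, features were ordered by how closely their levels over the 6 libraries followed the summed members, by Pearson's r of log2(CPM + 1). Over 6 libraries, with 2 of them DN, any gene high in DN scores well, and r is given as a description. Among 9658 features outside Klra, Klre1 came first (r = 0.999), followed by Aoah (0.995), Slc35b4 (0.989), Ncr1 (0.978), Styk1 (0.974), Klrc3 (0.974), Klrc1 (0.973), Kcnj8 and Aar2. Slc35b4 and Aar2 followed the pattern over a small range only (13.2 to 17.3 CPM for Slc35b4). Of the members, which are themselves part of the sum, Klra9 (0.989), Klra5 (0.979), Klra1 (0.946), Klra8 (0.943) and Klra7 (0.928) followed their sum, and Klra4 did not (0.120). Ncr1 had 15.3 CPM in control DN, 6.84 CPM in IR DN and at most 0.395 CPM in the other libraries.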

How the data were processed

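Single-cell RNA was measured in 6 libraries (CD4, CD8 and DN T cells of control and IR kidneys, 1 library per group, grouped by sample title). The deposited values are raw UMI counts for each feature in each barcode. The authors prepared libraries with the 3' kit of 10x Genomics and ran Cell Ranger on mm10. The submitters' notes name version 6.0.1, whereas the headers name 5.0.1 for control and 6.0.1 for IR. The study's methods state default settings, under which these versions leave intronic reads out.

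Following the study's filters, barcodes needed 500 features or more and a mitochondrial share of 20% or less, and the top 5% by UMI were removed as likely doublets (no caller was run), which left 48277 of 54039. The 99 mitochondrial, ribosomal protein and Malat1 features were left out of totals. Clusters (scanpy 1.11.5, Leiden) in which fewer than 50% of cells had a Cd3 UMI were taken out as non-T, which cost 8 to 15 barcodes per control library and 99 to 104 per IR library. A cluster of 237 cells led by antigen presentation genes, 82.3% of them with a Cd3 UMI, was kept. Pooled depth was 4386523 to 60775944 UMIs, which put the floor of 3 counts, used for a count of 0 in ratios, at 0.0494 to 0.684 CPM.

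UMIs were summed per library and scaled to CPM. Intervals are exact (Poisson for sums, Clopper-Pearson for shares, conditional binomial for ratios). UMIs count molecules, and intervals of CPM and of CPM ratios treat UMIs as independent, although several can come from 1 cell. They can therefore be too narrow for genes found in few cells. No interval covers differences between mice, sorts or runs. Gene positions came from GENCODE M21 and sequences from RefSeq. The rule for named genes took the 6 members, fixed lists, the 10 features most like the summed members over libraries and the 10 with the largest ratio in control DN cells with a member UMI; values of other genes are given from the lists, and 2 genes that these rules take are not reported here. Ly6c1, Themis, Ly6a and Il4 were named after their values were seen. The members and lists were chosen with earlier results of these data known. The counting rules were tested on simulated counts. Software was Python 3.11.15, numpy 2.4.6, scipy 1.17.1, R 4.3.3 and edgeR 4.0.16 (TMM factors only). Alternatives are given in the closing section.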

Additional observations from a re-analysis of the deposited data

Results flagged for a closer look

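The IR over control ratio of Klra8 lay on different sides of 1 in different subsets: it was 0.602 in DN (6 and 138 UMIs; 0.217 to 1.34) and 0.544 in CD4 (1 and 6 UMIs; 0.0118 to 4.49), both with intervals that include 1, and 5.66 in CD8 (4 and 5 UMIs; 1.12 to 26.3). With 1 library per group, whether the subsets differ was not tested. The 4 UMIs in IR CD8 lay in 4 cells and the 5 UMIs in control CD8 in 2 cells, and with the top 5% of barcodes kept the log2 ratio in CD8 went from 2.50 to 1.26.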

How the results depend on the processing

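No member past the 2-fold rule changed direction under any alternative run. Klra5 in IR over control CD8, which did not pass it (0.761), went above 1 with the top 5% of barcodes kept (1.12), with no cell filters (1.01) and after thinning (1.14). Klra1 in IR over control CD8 (0.879) was at 0.544 with the top 5% of barcodes kept and 0.494 with no cell filters, Klra5 in control DN over CD8 (22.1) was at 39.5 after thinning, and Klra8 in control DN over CD8 (20.7) was at 7.27 and 7.33 with the top 5% kept and with no cell filters. In all, 99 comparisons of a count, share or ratio with its alternative stayed within 1.5 times or within their interval and 20 moved, and of the values of single genes 408 stayed and 27 moved. The number of members that differed between IR and control in CD4 was 1 in place of 0 (Klra1, lower) with the top 5% of barcodes kept and with no cell filters, in CD8 it was 2 with no minimum CPM (Klra8 and Klra4, on 1 to 32 UMIs), and in IR DN against CD4 and CD8 it was 2 in place of 4 with a minimum of 50 CPM. Shares of cells with a member UMI moved with depth: without thinning they were 2.96%, 2.89% and 27.9% across the CD4, CD8 and DN libraries of control and 1.01%, 1.31% and 11.8% across those of IR, at 500 UMIs 0.789% in control CD4, 12.0% in control DN and 0.534%, 0.726% and 7.00% across the IR libraries, and at 1000 UMIs of all features 15.4% in control DN. The excess of cells with 2 or more members was 3.0 in control DN and 3.79 in IR DN after thinning to 700 UMIs and 2.34 in control DN with at least 2 UMIs per member. In IR DN, 63 in place of 30 features were higher in cells with a member UMI without thinning. This setting, requiring a Cd3 or T cell receptor UMI in the same comparison, and leaving out the antigen presentation cluster or the barcodes shared by libraries were chosen after the data were seen.

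No paired analysis was possible because each group holds 1 library and the labels give no replicate numbers. Leaving out a replicate was not run, since it would empty a group. Depth limits the IR values of Klra4 and Klra8, which rest on at most 6 UMIs in any IR library.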
